A study of Mus musculus with 9 samples.

Results

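The 10 genes described here are Xbp1, which encodes a transcription factor, and genes of endoplasmic reticulum (ER) chaperones, folding enzymes, degradation factors and other ER proteins. The transcription factors XBP1 and ATF6 are known to induce these genes. They were chosen by gene symbol, and all 10 (Hspa5, Hsp90b1, Calr, Dnajb9, Sdf2l1, Pdia4, Herpud1, Creld2, Manf and Xbp1) were found among the 54532 genes of the table and passed the filter on low values that left 9699 genes for testing. The RNA came from livers of male C57BL/6 mice aged 5 to 7 weeks, 9 in all, in 3 groups of 3. The NC group was the control, the APAP group was given 500 mg/kg acetaminophen (APAP) by intraperitoneal injection, and mice of the AMSC group received the same dose and, directly after it, 200000 adipose-derived mesenchymal stromal cells (AMSCs) through the tail vein. Livers of the APAP and AMSC groups were taken 6 h after APAP. The AMSCs had been grown from inguinal fat of C57BL/6 mice, so their transcripts could not be told from those of the host by sequence. The study's methods give a night without food ahead of APAP for all animals. Whether the NC mice received a sham injection is not given in the sources used here, so APAP and the injection itself cannot be told apart. The study calls the APAP group its vehicle group but does not describe a tail vein injection for it. The cells and that injection can therefore not be told apart in AMSC against APAP. Nothing states which mice shared a cage or a day of treatment.

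Secreted and membrane proteins fold in the ER, and the hepatocyte, which secretes most plasma proteins, depends on this more than most cells. When unfolded proteins build up, 3 sensors of the ER membrane start the unfolded protein response (UPR). ATF6 is cut in the Golgi to release a transcription factor, IRE1 (gene Ern1) splices Xbp1 mRNA so that it encodes the active factor XBP1s, and PERK (gene Eif2ak3) phosphorylates eIF2alpha, which lowers translation in general but raises that of ATF4, an inducer of CHOP (gene Ddit3). ATF6 and XBP1s bind ER stress elements in the promoters of chaperone genes. PERK is not the only kinase that phosphorylates eIF2alpha, so ATF4 targets also respond to other stresses. The values below are of mRNA, and at gene level they add the spliced and unspliced forms of Xbp1.

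ER stress elements, which ATF6 and XBP1s bind, were looked up in the promoters. The choice of the 10 genes did not rest on them. RefSeq promoters (GRCm38.p6, 250 bases before to 50 bases after the start) were found for 9 of the 10 genes, all except Manf. The full ER stress element ERSE (CCAAT, any 9 bases and CCACG, searched on both strands) stood in the promoters of Hspa5, Hsp90b1, Calr and Creld2, against 0.137% of the 27025 genes with a promoter. The related element ERSE-II (ATTGG, any 1 base and CCACG) stood in that of Herpud1, against 0.0444% of genes, and the core of the unfolded protein response element, UPRE (TGACGTG), in that of Hspa5, against 2.22%. The promoters of these 5 genes are shown because they hold the elements, on the strand of the gene, 5′ to 3′, leaving out bases that lie in the deposited gene model. Capitals mark ERSE, ERSE-II and the UPRE core. They are Hspa5 (chr2:34771840-34771969, + strand), Hsp90b1 (chr10:86705510-86705694, - strand), Calr (chr8:84846935-84847181, - strand), Creld2 (chr15:88819396-88819645, + strand) and Herpud1 (chr8:94386179-94386428, + strand).
Hspa5: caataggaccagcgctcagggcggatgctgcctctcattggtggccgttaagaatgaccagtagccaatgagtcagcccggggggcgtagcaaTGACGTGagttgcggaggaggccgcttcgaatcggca
Hsp90b1: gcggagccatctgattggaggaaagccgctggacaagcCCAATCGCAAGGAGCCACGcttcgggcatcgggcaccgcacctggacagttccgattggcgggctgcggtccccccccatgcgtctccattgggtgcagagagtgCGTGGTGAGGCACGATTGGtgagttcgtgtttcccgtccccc
Calr: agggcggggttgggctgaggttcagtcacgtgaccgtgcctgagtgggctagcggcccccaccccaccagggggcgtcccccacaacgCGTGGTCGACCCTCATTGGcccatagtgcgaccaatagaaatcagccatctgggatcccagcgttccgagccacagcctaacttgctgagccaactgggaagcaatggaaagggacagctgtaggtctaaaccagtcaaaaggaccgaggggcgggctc
Creld2: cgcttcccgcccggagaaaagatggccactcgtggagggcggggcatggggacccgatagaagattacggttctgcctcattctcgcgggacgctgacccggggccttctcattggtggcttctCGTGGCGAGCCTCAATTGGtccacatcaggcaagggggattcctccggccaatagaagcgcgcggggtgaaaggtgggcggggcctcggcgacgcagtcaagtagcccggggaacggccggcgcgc
Herpud1: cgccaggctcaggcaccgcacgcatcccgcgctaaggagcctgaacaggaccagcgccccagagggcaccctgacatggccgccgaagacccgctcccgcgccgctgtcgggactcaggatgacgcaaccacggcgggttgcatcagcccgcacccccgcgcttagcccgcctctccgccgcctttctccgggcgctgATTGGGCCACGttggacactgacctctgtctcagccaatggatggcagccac

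The ERSE of Hspa5 (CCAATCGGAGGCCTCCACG) began 65 bases before the RefSeq start, within the 120 bases of the window that the deposited gene model covers. Hsp90b1 held 2 ERSEs, which began 212 and 107 bases before the start and lay on opposite strands. Those of Calr and Creld2 began 162 and 126 bases before the start, both on the opposite strand, and the ERSE-II of Herpud1 began 52 bases before it. Sdf2l1, Pdia4, Dnajb9 and Xbp1 held none of the 3 elements in this window. The short core CCACG, which is part of both ERSE and ERSE-II, was found in 8 of the 9 promoters, all except that of Xbp1, and in 35.5% of all genes. Of the 5 genes that were lower after APAP by adjusted p (values below), Calr and Creld2 held an ERSE, Sdf2l1 and Pdia4 held none, and the promoter of Manf was not analysed here. Hspa5 and Hsp90b1 held an ERSE and did not pass that test.

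**Figure D1:**
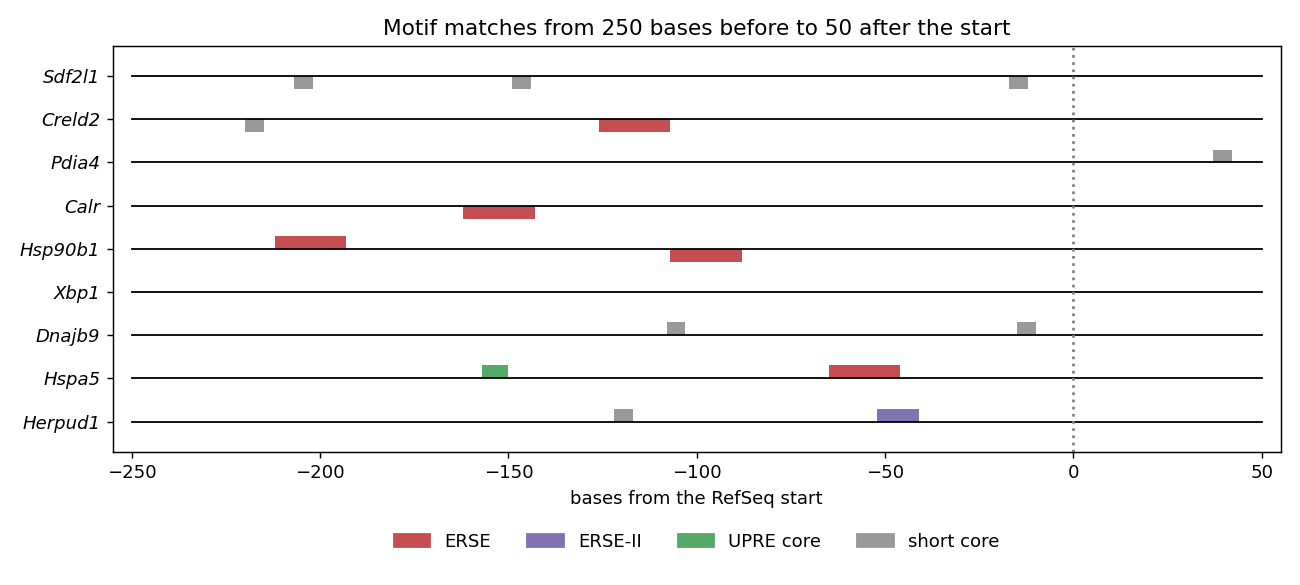
Positions of motif matches in the RefSeq promoters of 9 genes, in bases from the start (0, dotted line). Boxes above a line are on the strand of the gene and boxes below it on the opposite strand, and short cores that lie within an ERSE or ERSE-II are not drawn apart. Full elements are seen in Creld2, Calr, Hsp90b1, Hspa5 and Herpud1.

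The authors deposited FPKM, which scales the reads of a gene to its length, so levels may be set side by side between genes. The divisor for the library was not its total of reads. It kept a fixed proportion to a size factor in all 9 libraries. The size factor is the median over genes of reads relative to the gene's geometric mean over libraries. The divisor was 1.67e+07 in NC replicate 1, with 15444087 reads on genes, and 1.24e+07 in APAP replicate 2, with 13640978. Fold changes scaled to the total of reads were not computed here. Libraries held 13418921 to 16210930 reads on genes, and the 10 genes had between 71 reads (Sdf2l1, in the AMSC group) and 27048 reads (Hspa5, in the NC group) in a library. Counting error was not estimated apart from the spread between mice. NC replicate 3, whose title carries another date than the other 8, was the lowest of its group for 9 of the 10 genes, and AMSC replicate 3 was the highest of its group for 8. Some comparisons with the NC group are therefore also given without NC replicate 3. Hepatocyte transcripts dominated every library: the 7 hepatocyte markers found (of 8 listed) summed to 41394 to 44960 FPKM in the NC group, 59605 to 69119 in the APAP group and 53821 to 55995 in the AMSC group. In whole liver, fewer cells of a type and less RNA per cell cannot be told apart.

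In the NC group the levels in order were Hspa5, Calr, Herpud1, Hsp90b1, Xbp1, Pdia4, Creld2, Sdf2l1, Manf and Dnajb9, and the ranges of neighbours overlapped except between Hsp90b1 and Xbp1. In the APAP group Herpud1 and Hspa5 led with overlapping ranges and Sdf2l1 came last, below the range of Creld2. In the AMSC group Herpud1 led alone, with its range above that of Hspa5, and Sdf2l1 was again last by its mean, with a range that overlapped that of Manf.

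**Figure D2:**
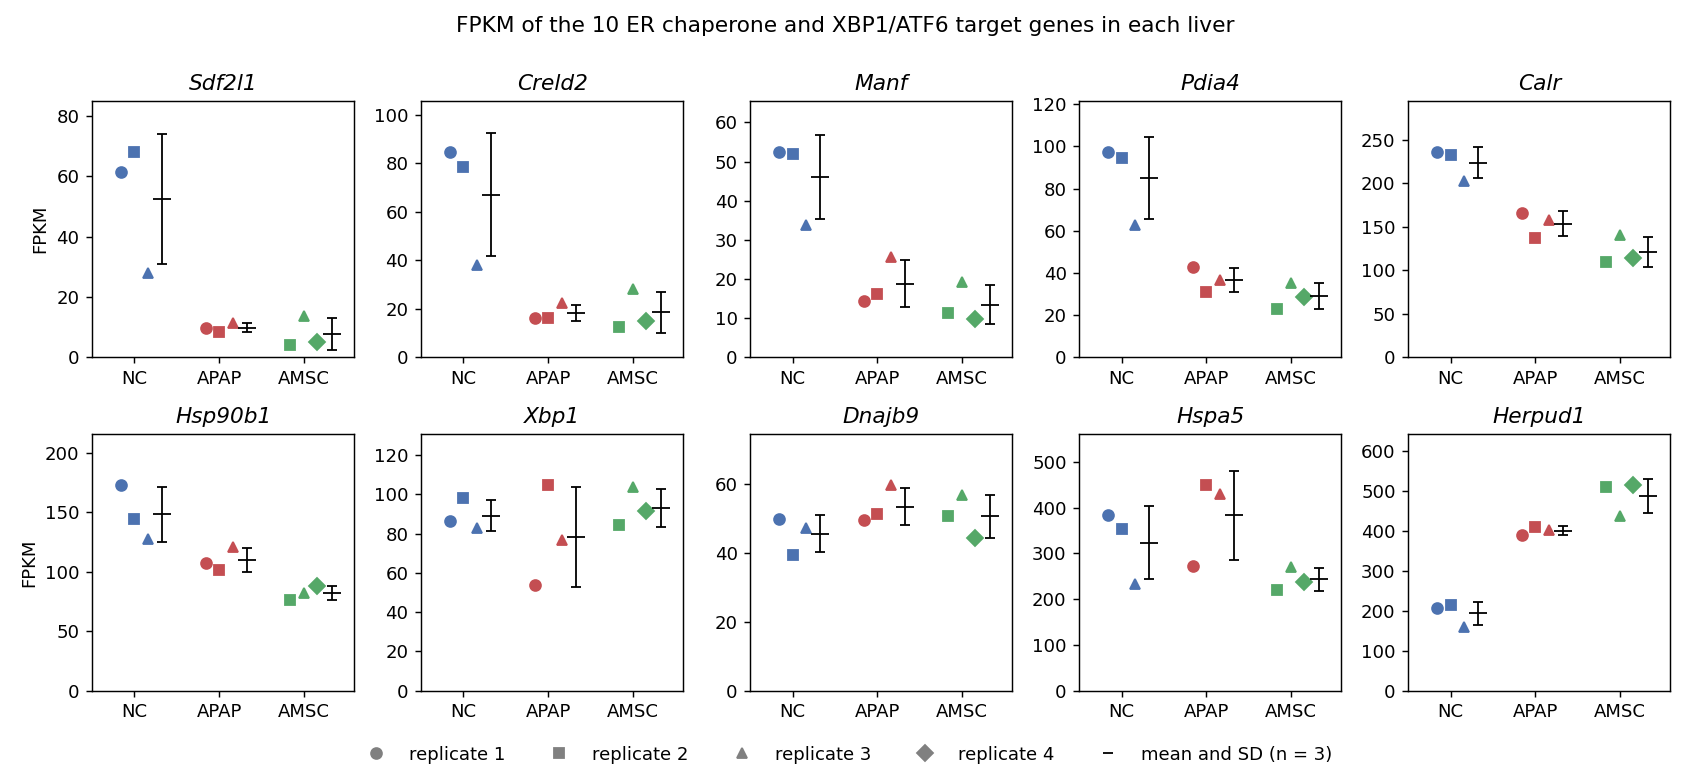
FPKM of the 10 genes in each of the 9 livers, with the mean and SD of each group (n = 3) beside the points and an axis from 0 for each gene. All 3 NC livers lie above all APAP and AMSC livers for Sdf2l1, Creld2, Manf, Pdia4, Calr and Hsp90b1, and below them for Herpud1.

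To find how APAP overdose changed these genes, the APAP group was compared with the NC group. Sdf2l1, Creld2, Manf and Pdia4 fell, Herpud1 rose, and Hspa5, the best known of the chaperones, did not pass the test. The study applied its thresholds (an adjusted p up to 0.05 and a log2 fold change of 1 or more in size) to DESeq2 results. Here they were applied to limma results. By them, 4 of the 10 genes were called lower, against 2.8% of all genes tested, and 1 was called higher, against 5.09%. By adjusted p alone 5 were lower, Calr being the fifth, against 13.1% of all genes, and 1 was higher, against 12.8%. The groups did not overlap for 6 genes that were lower, against 22.3% of all genes, and for 1 that was higher, against 20.9%. The median log2 fold change of the 10 genes was -0.48, beside -0.0043 over all genes tested. Without NC replicate 3, 5 genes were lower and 1 higher by adjusted p. Over all 9699 genes, that fit called 307 lower and 489 higher at the study's thresholds, where the main fit called 272 and 494. Its shares over all genes by adjusted p were not computed. Calr missed the adjusted test without NC replicate 1, NC replicate 2 or APAP replicate 2. Fold changes are on the scale of log2(FPKM + 1), where the change of low genes is understated.

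The AMSC group was then compared with the APAP group. With all 6 libraries, none of the 10 genes passed the adjusted test by limma, and without APAP replicate 1 Hspa5 passed it. Of all genes 0.742% were called higher and 1.22% lower, or 1.64% and 2.14% by adjusted p alone, and the lowest adjusted p was 0.123, for Hsp90b1. At an unadjusted p under 0.05 there were 2, Hsp90b1 and Hspa5, and voom on the recovered reads called 0 as well. The groups did not overlap for these 2, which were lower in the AMSC group (12.4% of all genes), nor for Herpud1, which was higher (14.6% of all genes). The median log2 fold change was -0.34, beside 0.013 over all genes. Against the NC group, the AMSC group had 4 genes called lower (2.09% of all genes) and 1 called higher (3.92%), and by adjusted p alone 6 lower (11.9%) and 1 higher (14.1%). Groups did not overlap for 6 genes lower (20.3%) and 1 higher (23.2%), and the median was -0.86, beside 0.016 over all genes. Without NC replicate 3, 7 were lower and 1 higher by adjusted p, Hspa5 being the gene added. Over all 9699 genes, that fit called 246 lower and 378 higher at the study's thresholds, where the main fit called 203 and 380. Its shares over all genes by adjusted p were not computed, so the added gene cannot be set against them. The comparisons share libraries (the NC group in those with NC, the APAP group in those with APAP), so their values are set side by side and are not independent.

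**Figure D3:**
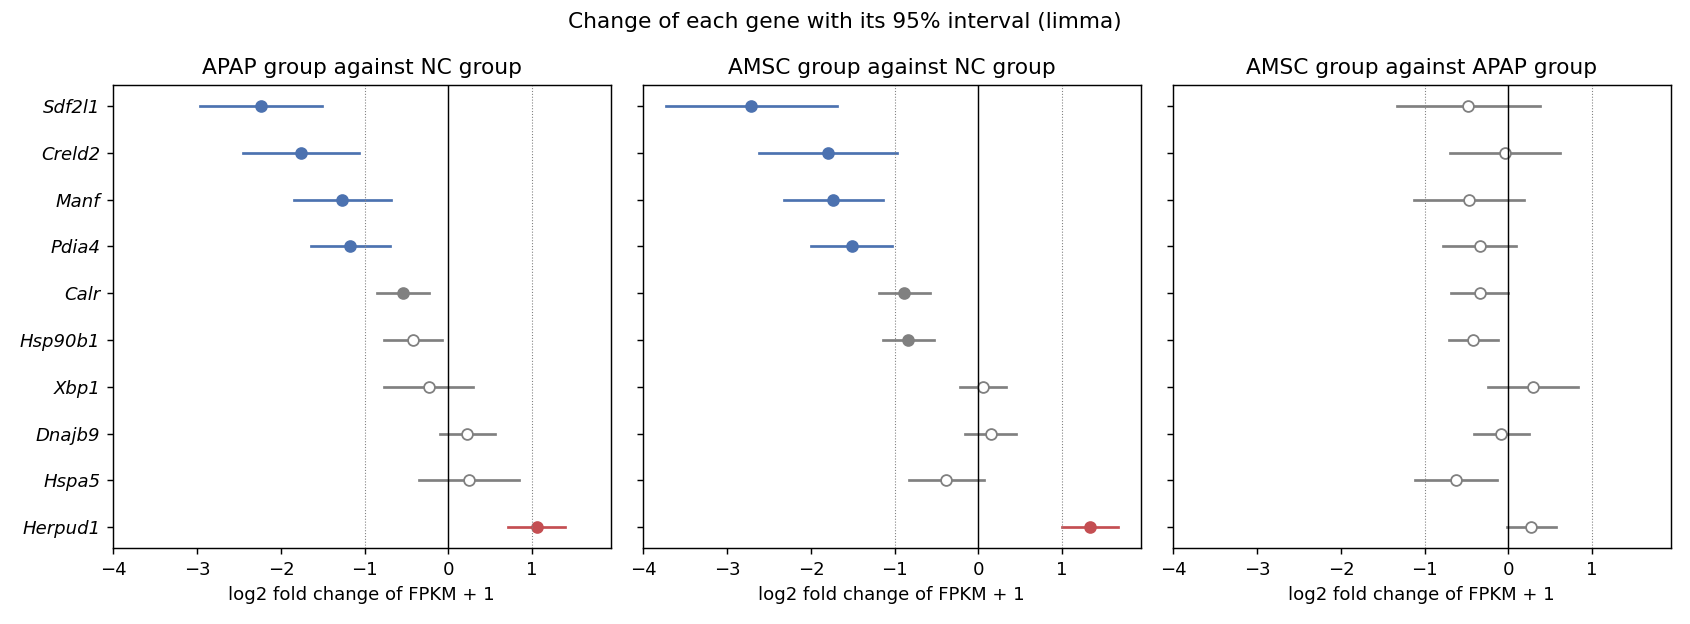
Log2 fold change of FPKM + 1 for each gene with its 95% interval from limma, in 3 comparisons. Coloured points pass an adjusted p of 0.05 and a fold change of 1 (dotted lines), filled grey points the adjusted p alone and open points neither; the AMSC group against the APAP group has open points only.

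Among the large chaperones, Hspa5 encodes BiP, the Hsp70 of the ER, which binds unfolded chains and keeps the sensors silent. Its level was 383, 353 and 232 FPKM in NC replicates 1, 2 and 3, 272, 449 and 429 FPKM in APAP replicates 1, 2 and 3, and 221, 271 and 238 FPKM in AMSC replicates 2, 3 and 4. NC and APAP livers overlapped widely, and all 3 AMSC livers lay below all APAP livers, though AMSC replicate 3 and APAP replicate 1 nearly met. From 323 ± 79.8 FPKM (SD, n = 3) in the NC group and 383 ± 96.9 in the APAP group, the log2 difference was 0.25 with a 95% interval from -0.35 to 0.84 (adjusted p = 0.518, limma), and 0.026 without NC replicate 3. In the AMSC group the level was 243 ± 25.6 FPKM, a log2 difference of -0.63 from the APAP group (SE 0.21, unadjusted p = 0.0180, adjusted p = 0.147, limma). Without APAP replicate 1, the lowest APAP liver, it was -0.86 and passed the adjusted test (adjusted p = 0.0253, limma), so that whether it passed turned on that library. Against the NC group it was -0.38 (adjusted p = 0.188, limma), and without NC replicate 3 it was -0.60 and passed the adjusted test (adjusted p = 0.0189, limma).

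Hsp90b1 encodes GRP94, the Hsp90 of the ER, which matures integrins and Toll-like receptors. It was at 173, 144 and 128 FPKM in the NC livers, 107, 102 and 121 FPKM in the APAP livers and 76.4, 82.1 and 87.8 FPKM in the AMSC livers. The 3 groups did not overlap and stepped down in that order. APAP against NC gave a log2 fold change of -0.42 that missed the adjusted test (SE 0.15, adjusted p = 0.0793, limma) but passed it under quantile normalization (-0.62, adjusted p = 0.0234) and in a single fit of all 9 libraries (adjusted p = 0.0419). Also short of the adjusted test was AMSC against APAP, at -0.42 (SE 0.13, adjusted p = 0.123, limma). AMSC against NC passed it with -0.84 (SE 0.13, adjusted p = 0.00330, limma), short of a log2 fold change of 1. A pseudogene with a stretch identical to Hsp90b1, 1810014B01Rik, reached at most 1.199 FPKM.

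Calr encodes calreticulin, a lectin chaperone that binds sugar chains of new glycoproteins and stores calcium. Its level was 236, 232 and 203 FPKM in the NC livers, 165, 137 and 158 FPKM in the APAP livers and 109, 141 and 114 FPKM in the AMSC livers. Every APAP and AMSC liver was below every NC liver, while AMSC replicate 3 lay above APAP replicate 2. Calr fell from 224 ± 18.1 to 153 ± 14.4 FPKM (SD, n = 3 each) after APAP, a log2 change of -0.54 (SE 0.13, adjusted p = 0.0218, limma), and was 121 ± 17.0 FPKM in the AMSC group, -0.88 from the NC group (adjusted p = 0.00237, limma). Leaving out NC replicate 1 took the adjusted p after APAP to 0.0993, leaving out NC replicate 2 to 0.0858 and leaving out APAP replicate 2 to 0.0792 (limma), so the call of Calr held in 3 of the 6 fits that left out a library. AMSC against APAP gave -0.34 with a 95% interval from -0.69 to 0.0014 (adjusted p = 0.241, limma).

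The co-chaperones of BiP behaved differently from each other. Sdf2l1 encodes an ER protein that works with BiP and its J-domain partners against aggregation. It was at 61.6, 68.2 and 28.0 FPKM in the NC livers, 9.69, 8.23 and 11.2 FPKM in the APAP livers and 4.03, 13.7 and 5.04 FPKM in the AMSC livers. Even NC replicate 3, which was far below the other NC livers, was above all 6 APAP and AMSC livers, and AMSC replicate 3 was the highest of these 6. The mean was 5.42-fold lower in the APAP group than in the NC group, with a log2 change of -2.23 (SE 0.32, adjusted p = 0.00266, limma), which ranked 25 from the lowest among the 9699 genes. Without NC replicate 3 it was -2.63 (adjusted p = 0.000638, limma). In the AMSC group the mean was 6.93-fold below the NC group (log2 fold change -2.71, adjusted p = 0.00361, limma). Between the AMSC and APAP groups the log2 difference was -0.48, with an interval from -1.33 to 0.38. It was -0.95 without AMSC replicate 3 (adjusted p = 0.0755, limma) and -0.18 without AMSC replicate 2, so its size turned on single libraries.

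Dnajb9 encodes ERdj4, a J-domain partner that recruits BiP to IRE1 and to proteins bound for degradation. Its level was 50.01, 39.6 and 47.4 FPKM in the NC livers, 49.6, 51.3 and 59.7 FPKM in the APAP livers and 50.8, 56.9 and 44.3 FPKM in the AMSC livers. All 3 groups overlapped. The log2 fold change after APAP was 0.23 with an interval from -0.098 to 0.55 (adjusted p = 0.271, limma), so a change by a log2 of 1 in either direction lay outside it. AMSC against APAP gave -0.081 (interval -0.41 to 0.25) and AMSC against NC 0.15 (interval -0.16 to 0.46). A near copy of Dnajb9, Gm6568, reached at most 0.331 FPKM in any library.

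Pdia4 encodes ERp72, a disulfide isomerase that forms and rearranges the bonds of secreted proteins. It was at 97.4, 94.6 and 62.5 FPKM in the NC livers, 42.6, 31.1 and 36.4 FPKM in the APAP livers and 22.9, 35.3 and 28.5 FPKM in the AMSC livers. The lowest NC liver was above the highest APAP liver, and the APAP and AMSC livers overlapped. The mean fell 2.31-fold after APAP, with a log2 change of -1.17 (SE 0.20, adjusted p = 0.00602, limma), and was -1.37 without NC replicate 3. In AMSC against NC it was -1.51 (SE 0.21, adjusted p = 0.00169, limma), and AMSC against APAP gave -0.34 with an interval from -0.78 to 0.093.

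Herpud1 encodes a membrane protein of the ubiquitin ligase complex that carries out ER-associated degradation, and its gene is known to respond to ATF4 as well as to ATF6 and XBP1. Its level was 207, 215 and 160 FPKM (NC replicates 1, 2 and 3; the last lowest), 390.0, 411 and 404 FPKM in the APAP livers and 510.1, 439 and 515 FPKM in the AMSC livers. The 3 groups did not overlap and stepped up in that order, opposite to Hsp90b1. The mean rose 2.07-fold after APAP, from 194 ± 29.6 to 401 ± 10.6 FPKM (SD, n = 3), with a log2 change of 1.06 (SE 0.15, adjusted p = 0.00248, limma). Without NC replicate 3 it was 0.93, which passed the adjusted test (adjusted p = 0.00664, limma) but was under the fold threshold. The only call of a rise after APAP among the 10 genes therefore turned on that library through the fold threshold. In the AMSC group the level was 488 ± 42.8 FPKM, 2.52-fold above the NC group (log2 fold change 1.34, adjusted p = 0.000532, limma; 1.204 without NC replicate 3). AMSC against APAP gave 0.28, with an interval from -0.020 to 0.57 (adjusted p = 0.269, limma).

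Creld2 and Manf encode small ER proteins that are also secreted. Creld2 was at 84.7, 78.3 and 38.1 FPKM in the NC livers, 16.0, 16.4 and 22.2 FPKM in the APAP livers and 12.6, 28.3 and 15.0 FPKM in the AMSC livers. NC replicate 3 was again the nearest to the treated livers without reaching them. The mean was 3.68-fold lower after APAP (log2 fold change -1.76, SE 0.30, adjusted p = 0.00549, limma), and -2.12 without NC replicate 3. In AMSC against NC the log2 fold change was -1.80 (SE 0.36, adjusted p = 0.00851, limma), and in AMSC against APAP it was -0.039, with an interval from -0.70 to 0.62.

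Manf, which encodes a trophic factor that binds BiP, was at 52.5, 52.0 and 33.8 FPKM in the NC livers, 14.5, 16.2 and 25.6 FPKM in the APAP livers and 11.2, 19.2 and 9.86 FPKM in the AMSC livers. APAP replicate 3 stood above the other APAP livers and below every NC liver. The mean was 2.46-fold lower after APAP (log2 fold change -1.27, SE 0.25, adjusted p = 0.00967, limma), and -1.47 without NC replicate 3. AMSC against NC gave -1.73 (SE 0.26, adjusted p = 0.00232, limma), and AMSC against APAP -0.47, with an interval from -1.12 to 0.18. The latter was -0.74 without AMSC replicate 3, -0.23 without APAP replicate 3 and -0.29 without AMSC replicate 4, and it missed the adjusted test in each. The deposited gene model of Manf (chr9:106838312-106891979, GRCm38) overlaps Rbm15b on the same strand and Dcaf1 on the other, which reached at most 3.27 and 3.42 FPKM.

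Xbp1, the transcription factor gene that names the group, showed no change at gene level that passed the test. It was at 86.4, 98.0 and 83.0 FPKM in the NC livers, 53.9, 105 and 76.6 FPKM in the APAP livers and 84.1, 103 and 91.6 FPKM in the AMSC livers. The APAP livers were the most spread, at 78.4 ± 25.3 FPKM (SD, n = 3) beside 89.2 ± 7.89 in the NC group and 93.1 ± 9.74 in the AMSC group. The log2 differences were -0.23 (interval -0.76 to 0.30) for APAP against NC, 0.29 (interval -0.25 to 0.83) for AMSC against APAP and 0.060 (interval -0.22 to 0.34) for AMSC against NC. The share of spliced Xbp1 was not analysed here.

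**Figure D4:**
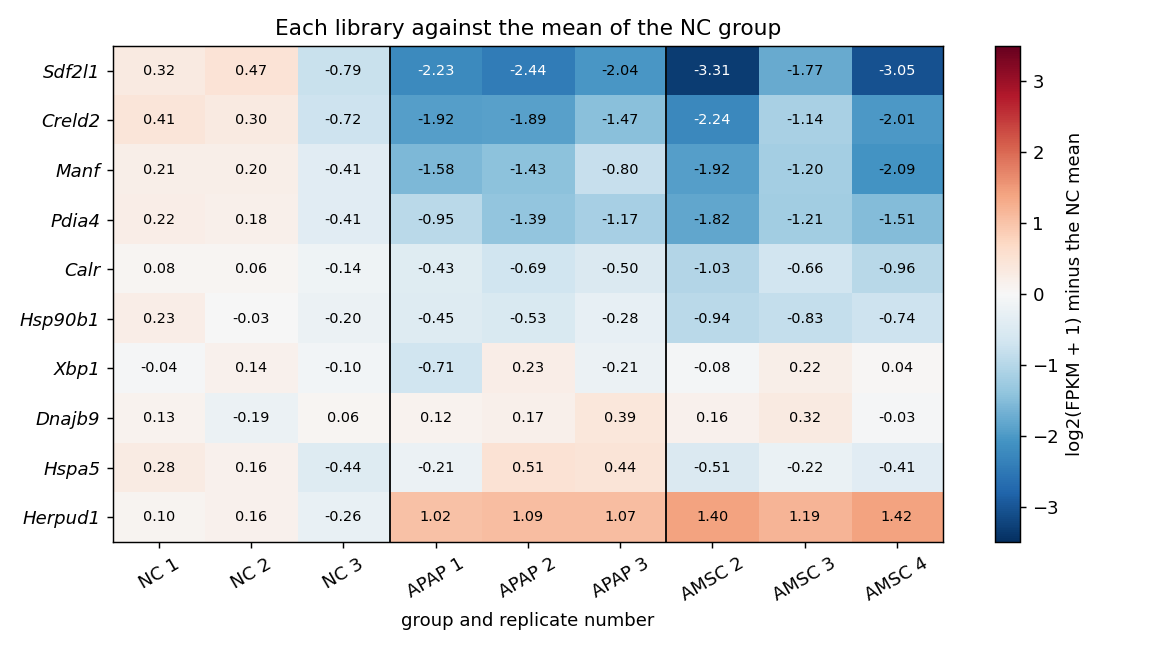
Difference of log2(FPKM + 1) of each gene in each library from its NC mean, with the value in each cell (blue lower, red higher; columns are the libraries by group and replicate number). The top rows are blue in all 6 APAP and AMSC libraries, down to -3.31 for Sdf2l1 in AMSC replicate 2, and the row of Herpud1 is red in all 6, up to 1.42 in AMSC replicate 4.

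The proportions between the genes shifted with treatment, in pairs picked after their values had been seen and so given without a test. The level of Hspa5 was 5.18 to 8.30 times that of Sdf2l1 in the NC livers, 28.1 to 54.5 times in the APAP livers and 19.8 to 54.7 times in the AMSC livers. The level of Herpud1 was 0.539 to 0.688 times that of Hspa5 in the NC livers, 0.915 to 1.43 times in the APAP livers and 1.62 to 2.31 times in the AMSC livers. By the difference of their centred log2 values over the 9 libraries, the genes most like Hspa5 were Gm3787 (root mean square difference 0.134), Lmna (0.177), Fndc4 (0.197), Bag2 (0.198) and Hhex (0.216). None of them is on the lists used here. Among the other 9 genes, the nearest to Hspa5 was Dnajb9, at rank 1938 of all genes tested, and the farthest was Sdf2l1, at rank 9599.

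The other genes of the response were taken from lists of sensors, chaperones, isomerases, degradation factors, translocation factors and ATF4 targets. Of 8 sensors and transcription factors tested, APAP against NC gave 1 higher and 1 lower by adjusted p, near the shares over all genes tested (12.8% higher and 13.1% lower). Eif2ak3, which encodes PERK, rose from 3.02 ± 0.495 to 6.38 ± 0.569 FPKM (SD, n = 3; log2 fold change 0.88, adjusted p = 0.00337, limma), and Atf6b, a relative of Atf6, fell from 11.2 ± 2.48 to 4.88 ± 0.301 FPKM (log2 fold change -1.04, adjusted p = 0.00346, limma). Ern1, Atf6 and Creb3l3, the last a liver factor activated like ATF6, passed in none of the 3 comparisons. Their log2 fold changes after APAP were -0.16, 0.16 and 0.30. AMSC against NC gave the same count for this list, with Eif2ak3 at 0.78 and Atf6b at -1.001.

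Of 19 other chaperones and co-chaperones, 4 fell and 0 rose after APAP by adjusted p, beside 13.1% and 12.8% of all genes tested, and the median log2 fold change of the list was -0.18. Those that fell were Hyou1 (-1.001), the nucleotide exchange factor of BiP, Dnajb11 (-0.93), a J-domain partner of BiP, Fkbp11 (-0.77), a prolyl isomerase, and Cnpy3 (-0.43), a chaperone of Toll-like receptors. Of 15 disulfide isomerases and oxidative folding genes, 4 fell and 1 rose, to be read against the same shares. The isomerase Txndc5 was lowest, at -1.03 (48.5 ± 9.58 to 22.9 ± 1.62 FPKM, n = 3), and Qsox1, a sulfhydryl oxidase, was higher at 0.61. The median of this list was 0.076. Of 19 translocation and signal peptidase genes, 7 fell and 0 rose, against those shares, with a median of -0.36, the signal peptidase subunit Spcs2 lowest at -0.65.

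Of 23 other genes of ER-associated degradation, 2 fell and 1 rose after APAP, both below the shares over all genes (13.1% lower and 12.8% higher), with a median of -0.090. Ubxn4, an ER protein that binds the ATPase p97, fell by 0.75 and Edem1, which hands misfolded glycoproteins on, fell by 0.62 on the log2 scale. Herpud2, the paralog of Herpud1, rose from 5.01 ± 0.439 to 8.52 ± 1.05 FPKM (SD, n = 3; log2 fold change 0.66, adjusted p = 0.00879, limma), so both Herpud genes were higher than in the NC group.

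The list of the PERK-ATF4-CHOP arm moved in the other direction from the falling members. Of 9 genes tested, 7 rose and 0 fell after APAP, beside 12.8% and 13.1% of all genes tested, with a median log2 fold change of 2.21. Ddit3, the gene of CHOP, was at 4.13, 4.59 and 4.68 FPKM in the NC livers, 31.8, 135 and 84.4 FPKM in the APAP livers and 118, 89.5 and 109 FPKM in the AMSC livers. Its log2 fold change was 3.73 after APAP (SE 0.45, adjusted p = 0.00142, limma). Chac1, an enzyme that breaks down glutathione, rose by 3.68, Ppp1r15a, which dephosphorylates eIF2alpha, by 3.11 and Sesn2 by 2.64. Chac1 was at 0.247 to 0.439 FPKM in the NC livers, under the filter of 1 FPKM. It was therefore tested only through its level in the other groups. Atf4 itself was at 39.3 to 41.4 FPKM in the NC livers, 78.4 to 139 FPKM in the APAP livers and 70.2 to 123 FPKM in the AMSC livers. APAP replicate 1 was the lowest APAP liver for Ddit3, Chac1 and Atf4, as it was for 6 of the 10 genes.

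Between the AMSC and APAP groups, 2 genes of all these lists passed the adjusted test, 1 higher and 1 lower. Over all genes tested 1.64% were higher and 2.14% lower, so this count was near those shares. Ddit4, an ATF4 target that restrains mTORC1, was at 7.60, 8.14 and 10.6 FPKM in the APAP livers and 44.6, 61.1 and 50.2 FPKM in the AMSC livers (log2 fold change 2.43, adjusted p = 0.00115, limma). Ero1lb, an oxidase that recharges disulfide isomerases, was lower in the AMSC group at 5.98 ± 0.667 FPKM than in the APAP group at 9.75 ± 0.265 FPKM (n = 3; log2 fold change -0.63, adjusted p = 0.0373, limma). Against the NC group, the AMSC group had 8 of 19 chaperones, 6 of 15 isomerases and 8 of 19 translocation genes lower and 0 higher in any of these lists, 6 of 23 degradation genes higher and 4 lower, and all 9 tested genes of the PERK arm higher, where 11.9% of all genes tested were lower and 14.1% higher by adjusted p. Hyou1 was lowest of the chaperones at -1.62, Pdia5 and Pdia6 of the isomerases at -1.13 and -1.11, and Syvn1, the ligase that works with Herpud1, of the degradation genes at -0.90. Chac1, which passed the filter only through the treated groups, was highest of the PERK arm at 5.56 and Ddit3 was at 4.27. Without NC replicate 3, the counts after APAP were 3 chaperones, 4 isomerases, 5 degradation and 5 translocation genes lower, and 7 genes of the PERK arm higher. In AMSC against NC without it, 9 chaperones, 6 isomerases and 10 translocation genes were lower and 0 higher in any of these lists. All 9 genes of the PERK arm were higher. Degradation genes were 4 higher and 5 lower, so the side with more genes turned on that library. Shares over all genes by adjusted p were not computed without NC replicate 3.

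**Figure D5:**
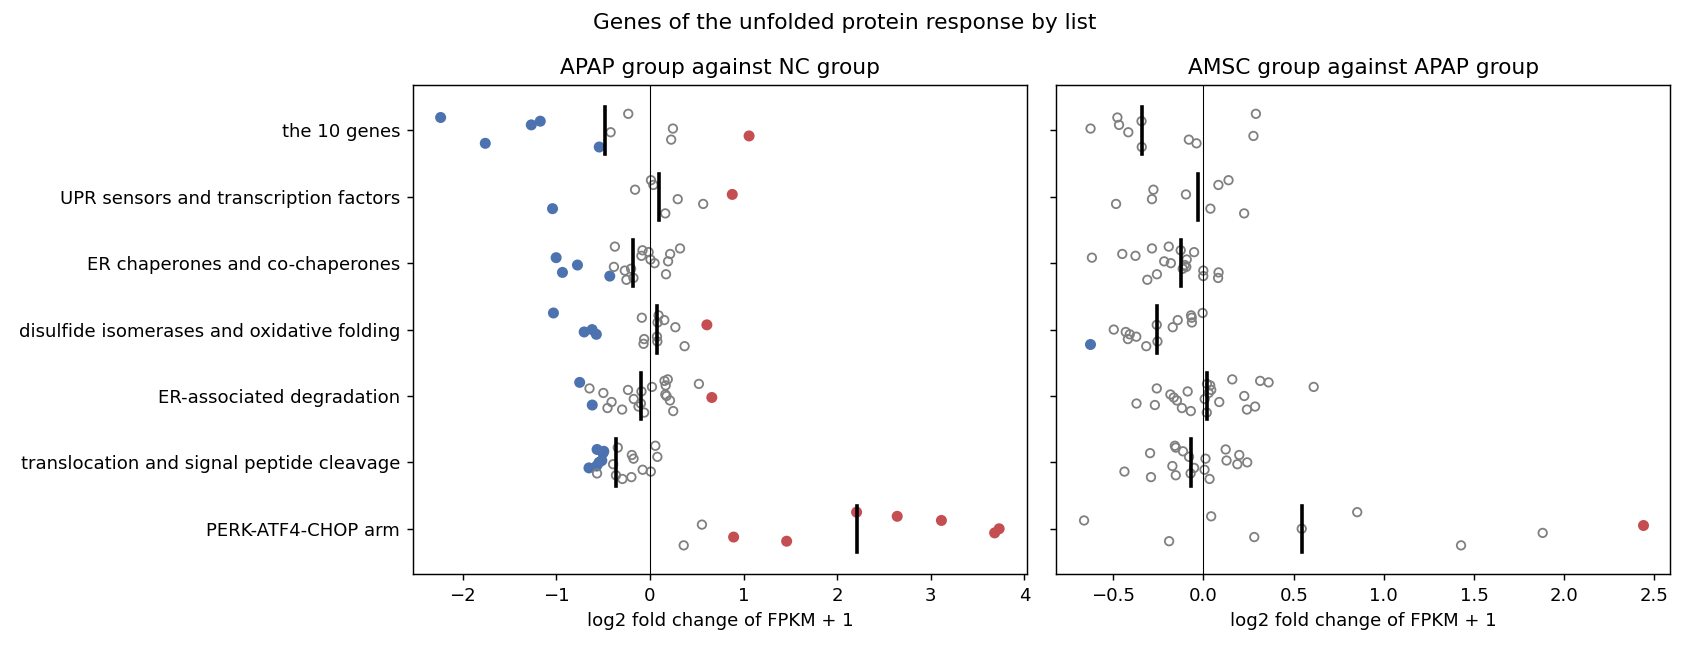
Log2 fold change of FPKM + 1 of each tested gene in 7 lists, for the APAP group against the NC group (left) and the AMSC group against the APAP group (right, with an axis scale of its own). Filled points pass an adjusted p of 0.05 (red higher, blue lower), open points do not, and black bars are medians. On the left the bar of the PERK-ATF4-CHOP arm is at 2.21 and that of the 10 genes at -0.48.

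Markers of other cells also differed between groups. Secretory B-lineage cells are rich in these chaperones, and the 8 plasma and B cell markers summed to 3.85 to 9.57 FPKM in the NC livers, 5.10 to 11.5 in the APAP livers and 4.96 to 8.28 in the AMSC livers, so the groups overlapped at a low level. The 8 neutrophil markers summed to 0.173 to 1.66 FPKM in the NC livers, 7.31 to 33.5 in the APAP livers and 4.07 to 5.79 in the AMSC livers, with Camp at 0 in all 9 libraries. The 3 of them that were tested, S100a8, S100a9 and Retnlg, averaged 0.308, 0.223 and 0.131 FPKM in the NC livers. They passed the filter of 1 FPKM only through the other groups, so their rise after APAP was largely set by the filter. Of 5 erythrocyte genes tested 4 rose after APAP by adjusted p, beside 12.8% of all genes tested. The 6 listed summed to 134 to 254 FPKM in the NC livers, 306 to 1406 in the APAP livers and 183 to 312 in the AMSC livers. The 10 macrophage markers summed to 108 to 205 FPKM in the NC livers, 156 to 402 in the APAP livers and 96.7 to 158 in the AMSC livers. The 8 endothelial markers summed to 20.6 to 44.6, 25.9 to 67.5 and 24.4 to 25.5 FPKM in the same order, the 9 stromal markers, which AMSCs also carry, to 20.5 to 38.1, 26.2 to 56.9 and 25.7 to 44.3 FPKM, and the 5 cholangiocyte markers to 18.7 to 39.6, 57.4 to 97.3 and 27.3 to 50.5 FPKM. Of the 7 hepatocyte markers, 4 rose and 0 fell after APAP by adjusted p, beside 12.8% and 13.1% of all genes tested. The 4 were Fgb (0.88), Apoa1 (0.70), Serpina1a (0.64) and Alb (0.64 in log2 fold change). In the same libraries 5 of the 10 genes were lower by adjusted p. Without NC replicate 3, 3 hepatocyte markers rose and 0 fell. After APAP, macrophage markers then went from 1 to 3 higher, endothelial from 1 to 2, stromal from 0 to 2 and cholangiocyte from 2 to 1. In each of these lists 0 were lower. Erythrocyte genes in AMSC against NC went from 0 higher and 1 lower to 4 higher and 1 lower. Shares over all genes by adjusted p were not computed without that library. The part of the shifts in cell markers in the results was not tested.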

How the data were processed

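Livers of 9 mice (3 each of the NC, APAP and AMSC groups) were analysed by RNA-seq from total RNA with an mRNA-seq library kit, per the labels. Groups and replicate numbers were taken from the labels, and the AMSC libraries carry numbers 2, 3 and 4. The authors deposited FPKM values for 54532 genes with gene lengths and coordinates. The submitters' processing notes name GRCm38 and mm10, the aligner and counting program are not given in the sources used here, and 98.33% of 54409 gene identifiers had the start and end of GENCODE vM21. FPKM times gene length gave whole reads (within 0.1 read), so depth was recovered: 13418921 to 16210930 reads per library, with a read on 1 kilobase worth 0.0578 to 0.0807 FPKM. The divisor that this gives was in a fixed proportion to the median-of-ratios size factor of each library, not to its reads on genes. Whether counting used strand is not given in the sources used here.

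Here, log2(FPKM + 1) of the 9699 genes whose mean reached 1 FPKM was fitted with limma 3.58.1 (lmFit, eBayes with trend; R 4.3.3), with the 2 groups compared in each fit and Benjamini-Hochberg adjustment over all 9699 genes. Genes were called at an adjusted p up to 0.05 and a log2 fold change of 1 or more in size, the study's thresholds. The fit was tested on simulated data. P-values set the difference between group means against the spread between livers within the groups. For this, limma draws the variance of each gene toward a trend over all genes tested. The named genes were the 10 members, up to 4 genes of each list with the largest change past the adjusted p, Ern1, Eif2ak3, Atf6 and Creb3l3, and the 5 genes most like Hspa5. Some genes under this rule, Trib3 and Pdia3 among them, are not named in the results. The ranges of Atf4 were added after its values were seen. Members, lists and promoter elements were chosen with earlier results of these data known. Ddit3 has 2 identifiers, of which that above 0 was used. Same-numbered APAP and NC libraries deviated together from their group means (correlations 0.213, 0.160 and 0.378), with the numbers taken from the labels. As alternatives, the fits were rerun with all genes above 0, a minimum mean of 5 FPKM, a pseudocount of 0.1, quantile normalization, a single fit of all 9 libraries, limma without the trend, voom on the recovered reads, the adjusted p alone, a replicate block and leaving out each replicate. Tables and figures were made with matplotlib 3.10.9, numpy 2.4.6 and pandas 2.3.3 in Python 3.11.15.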

Additional observations from a re-analysis of the deposited data

How the results depend on the processing

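Of the 10 genes, the count called lower after APAP (4) was 2 when all genes above 0 were tested, where the adjusted p of Creld2 was 0.0518 and that of Manf 0.0675, and the count called lower in AMSC against NC (4) was also 2 there, with Sdf2l1 at 0.0577 and Creld2 at 0.0877. More genes, 24849 in place of 9699, were then tested. The count called higher after APAP (1, Herpud1) was 0 under quantile normalization, with a log2 fold change of 0.74, and ranged from 0 (without NC replicate 3) to 1 when replicates were left out. Quantile normalization also took Hsp90b1 to -1.002 and Calr to -1.09 in AMSC against NC, past the fold threshold. By adjusted p alone, Hsp90b1 after APAP passed under quantile normalization and in the single fit, Calr after APAP missed without NC replicate 1, NC replicate 2 or APAP replicate 2, and Hspa5 passed in AMSC against APAP without APAP replicate 1 and in AMSC against NC without NC replicate 3, all short of the fold threshold. Values that changed sign had missed the test throughout. Under quantile normalization, Hspa5 was -0.037 after APAP and Xbp1 -0.072 in AMSC against NC. With a replicate left out, Xbp1 after APAP ranged from -0.46 to 0.0089 (without APAP replicate 1), Xbp1 in AMSC against NC from -0.018 (without AMSC replicate 3) to 0.13, Dnajb9 in AMSC against APAP from -0.17 to 0.0098 (without AMSC replicate 4), and Creld2 in AMSC against APAP from -0.37 to 0.18, above 0 without APAP replicate 3 (0.11), AMSC replicate 2 (0.18) or AMSC replicate 4 (0.069). The causes were not tested. The replicate block changed no call of the 10 genes at the study's thresholds. In AMSC against NC and AMSC against APAP the libraries share only a number (correlations from -0.309 to -0.104), and there the block, over replicates 2 and 3, took Calr and Hsp90b1 in AMSC against NC to adjusted p of 0.0812 and 0.0820. Over all genes, the count called lower after APAP was 272, but 453 with a pseudocount of 0.1, 478 with voom and 170 with a mean of at least 5 FPKM. The count called higher after APAP was 494, and 308 with that mean. In AMSC against NC, 203 were called lower, against 362, 391 and 129 under the same 3 alternatives, and 380 higher, against 577 with voom. In AMSC against APAP, 72 were called higher and 118 lower, against 4 and 17 with all genes above 0, 127 and 208 with the replicate block, 112 and 184 with voom, and 48 and 54 with a mean of at least 5 FPKM, and leaving out a replicate gave 36 to 75 higher and 53 to 154 lower. None of the 10 genes was called in AMSC against APAP under any of these. With 3 livers a group, the intervals of AMSC against APAP reached a log2 of 1 in size for Hspa5, Manf and Sdf2l1, so changes of that size could not be seen or set aside for these.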
